A study of Homo sapiens with 6 samples.

Results

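Heat shock chaperones were examined as 10 genes, taken as the rows of the deposited count table whose symbol was HSPA1A, HSPA1B, HSPA8, HSPH1, HSP90AA1, HSP90AB1, DNAJB1, BAG3, HSPB1 or CRYAB. All 10 were found among the 60623 rows kept. The table holds RNA sequencing reads from 6 libraries whose labels give PANC-1, a long-established line from a human pancreatic ductal carcinoma. Of these, 3 carry the label shSTN1, a short hairpin RNA against STN1, and 3 the label shControl, a control hairpin, with the genotype given as WT. The genotype entry of a pair of the shSTN1 libraries names STN2 and STN3, and the titles were used for grouping. All 6 come from cells grown in DMEM with serum, and the labels name no heat or chemical stress, no number of clones and no time after the hairpin was introduced. Nothing in them describes separate cultures beyond the words for biological replicates, so p-values reflect only how far these libraries scatter, and that scatter may be partly technical.

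Heat shock proteins keep other proteins folded. HSP70 proteins bind exposed stretches of unfolded chains, HSP40 (DNAJ) proteins deliver these chains and start ATP hydrolysis, and nucleotide exchange factors such as HSP110 and BAG proteins release them. HSP90 acts later on kinases and hormone receptors, and small heat shock proteins hold unfolded chains without ATP. Heat shock factor 1 raises transcription of many of these genes under proteotoxic stress, while some family members are made constitutively.

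The libraries held 17357223 to 23336942 counted reads. STN1 itself had 387, 346 and 278 reads in control and 303, 306 and 275 in the shSTN1-labelled libraries, 90.3% of control in CPM (reads per library, put on the scale of TMM-adjusted library sizes), and did not pass the test (log2 fold change -0.15, SE 0.105, edgeR adjusted p = 0.253). With library totals alone as the scale, STN1 had a log2 fold change of -0.35 (edgeR adjusted p = 0.0091). CDKN2A, which PANC-1 is described as lacking, was counted with 3968, 3882 and 3903 reads in control and with 0 in each library labelled shSTN1. The 6 epithelial and ductal carcinoma markers examined (KRT7, KRT8, KRT18, KRT19, EPCAM, MUC1) summed to 909 to 973 CPM in control and to 5512 to 5665 CPM in the shSTN1-labelled libraries. The 5 embryonic kidney line markers (IRS4, LIN28B, PAX2, NEFL, NEFM) summed to 608 to 708 CPM in control and to 68.3 to 70.0 CPM in the shSTN1-labelled libraries. In the latter, PAX2 was higher than in control, at 62.5 against 24.2 CPM, and IRS4 stood at 0.0458 CPM. Leukocyte and endothelial markers summed to at most 4.3 CPM in any library, with CD3E and PECAM1 at 0 throughout, and the fibroblast markers to 64.6 to 78.4 CPM in control and 147 to 162 CPM in the shSTN1-labelled libraries. COL1A1 carried most of that sum (46.7 against 124 CPM), while COL1A2 had at most 2 reads in any library, LUM went from 0.482 to 0.0316 CPM and DCN had 0 reads in the shSTN1-labelled libraries. The effect of the hairpin and these other differences between the labelled groups cannot be told apart, and every direction given here is between libraries as labelled. In bulk RNA, a change in the make-up of the cells and a change in RNA per cell cannot be told apart either.

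Of the 10 chaperone genes, 9 had enough reads to be tested, and all 9 differed between the groups, 6 being higher and 3 being lower in the shSTN1-labelled libraries (edgeR quasi-likelihood test, adjusted p under 0.05 over 17451 genes). Differences were as common elsewhere, since 74.1% of all tested genes passed, 35.6% higher and 38.5% lower, so the number of calls does not set the chaperones apart. The 3 libraries of each group did not overlap for any of the 9, as for 75.6% of all tested genes. Differences reached 2-fold in 5 of the 9 (HSPA1A, BAG3 and HSPB1 higher, HSPA1B and HSP90AA1 lower), against 34.6% of all tested genes. The median log2 fold change was 0.57, beside -0.03 for all tested genes, and the median size without sign was 1.13, beside 0.68. The family did not move one way. As counted, directions were opposite within the pair of HSPA1A and HSPA1B and within that of HSP90AA1 and HSP90AB1. HSPH1, the remaining lower member, belongs to neither pair.

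**Figure D1:**
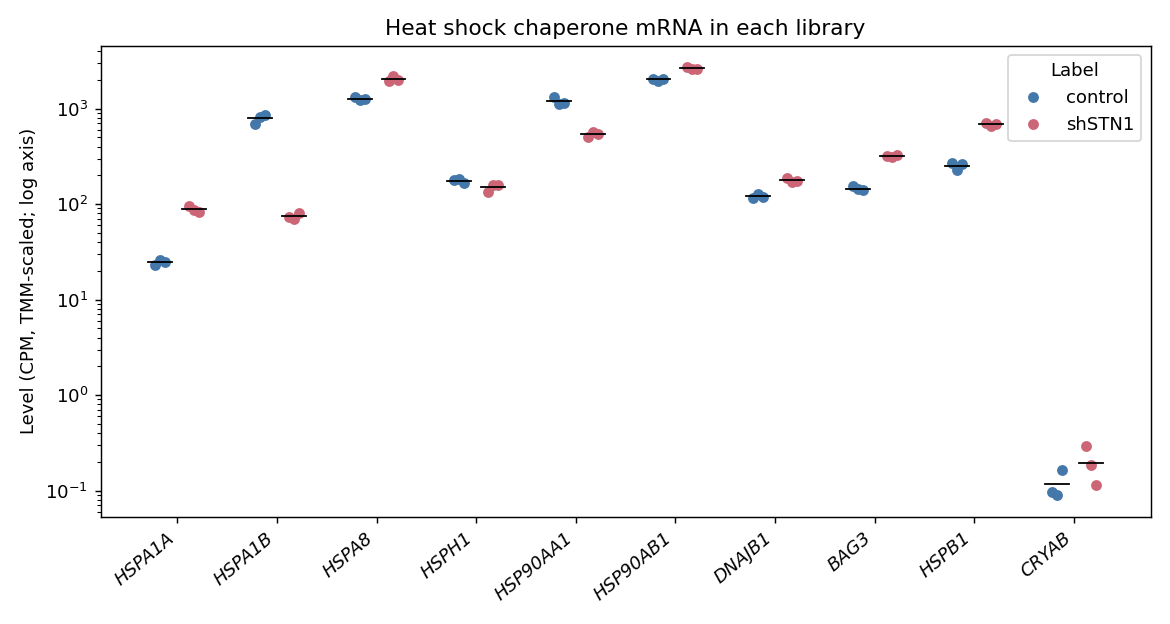
Level of each chaperone gene in each library, in TMM-scaled CPM on a log axis; points are libraries (blue control, red shSTN1) and black lines group means. HSPA1B falls from 789 to 74.7 CPM while HSPA1A goes from 24.5 to 88.4 CPM, and CRYAB stays below 1 CPM in all 6 libraries.

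The largest differences were in the inducible cytosolic HSP70 genes, and they went in opposite directions. HSPA1A and HSPA1B encode the same stress-inducible HSP70 protein from neighbouring copies on chromosome 6, in the class III region of the major histocompatibility complex (GRCh38, 31815464 to 31817946 and 31827735 to 31830255, both on the plus strand, 9788 bases apart). HSPA1B had 14339, 18477 and 15712 reads in control and 1490, 1531 and 1432 in the shSTN1-labelled libraries. Its level was 789 ± 86.9 CPM against 74.7 ± 5.81 CPM in the shSTN1-labelled libraries (SD, n = 3 each), 10.6-fold lower (log2 fold change -3.40, SE 0.114, edgeR adjusted p = 3.97e-27). All 3 controls lay far above all 3 shSTN1-labelled libraries, and only 6.28% of tested genes had a larger change without regard to sign.

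HSPA1A had 480, 574 and 458 reads in control and 1971, 1885 and 1458 in the shSTN1-labelled libraries. Its level was 24.5 ± 1.31 against 88.4 ± 7.0 CPM, 3.6-fold higher (log2 fold change 1.85, SE 0.0789, edgeR adjusted p = 3.17e-19). All 3 libraries labelled shSTN1 lay above all 3 controls. HSPA1B therefore held 96.8%, 97.0% and 97.2% of the reads of the pair in control, against 43.1%, 44.8% and 49.6% in the shSTN1-labelled libraries. The Wilson 95% intervals of these shares reached from 96.5% to 97.4% in control and from 41.4% to 51.4% in the shSTN1-labelled libraries, and cover counting error only. Copies that made up nearly all and nearly none of the pair in control were close to equal in the shSTN1-labelled libraries.

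The summed reads of both copies were 14819, 19051 and 16170 in control and 3461, 3416 and 2890 in the shSTN1-labelled libraries. The sum fell from 814 ± 88.03 to 163 ± 6.30 CPM (n = 3 each), with a log2 fold change of -2.32 when both rows were replaced by their sum (edgeR adjusted p = 7.87e-24). The summed reads counted for both copies were thus lower, although 1 copy was higher. HSPA6, an HSP70 gene that is not in this sum, had 20, 36 and 19 reads in control. It had 55, 57 and 26 reads in the shSTN1-labelled libraries and passed as higher (log2 fold change 0.91, edgeR adjusted p = 0.00838). Its levels overlapped between the groups.

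**Figure D2:**
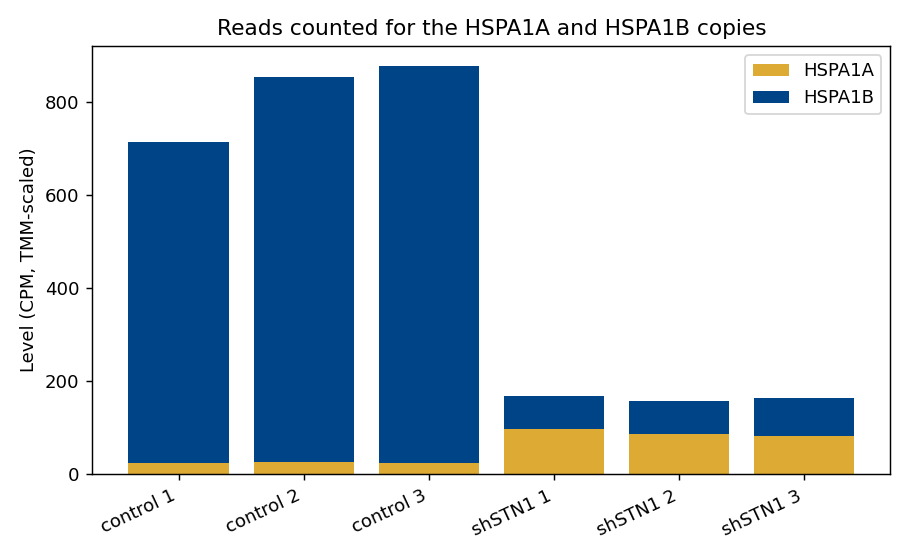
Reads counted for HSPA1A (yellow) and HSPA1B (blue) in each library, in TMM-scaled CPM on a linear axis from 0. The stacked height is 713 to 876 CPM in control and 157 to 169 CPM in the shSTN1-labelled libraries, where the yellow part is larger than in control.

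Counts of these copies carry a limit. In GENCODE 29 their coding sequences of 1926 bases differ at 4 positions. Their untranslated regions there have 293 and 216 bases before and 264 and 379 bases after the coding part. The difference before the coding part depends on the annotation. Before the RefSeq start sites, GENCODE 29 gives 79 untranslated bases in HSPA1A and 3 in HSPA1B. Of all 100-base windows of the HSPA1A transcript, 69.9% also occur without a mismatch in HSPA1B, and 68.8% of those of HSPA1B in HSPA1A. Shorter and longer windows of 50 and 150 bases gave 72.6% and 67.1% for HSPA1A. How reads that match both copies were treated is not given in the sources used here, and neither is the read length. AL671762.1, a processed transcript on the same strand, covers 920 of the coding bases of HSPA1B and had 0 reads in every library. Reads over these bases may have been counted for neither gene, since the handling of overlapping genes is not given. HSPA1A shares no exon bases with another gene. Of the other members, none shared more than 5.06% of its 100-base windows with another gene, and HSPA8, HSPH1, DNAJB1, BAG3 and CRYAB shared 0%. By position, genes on the other strand covered 20.6% of the exon bases of CRYAB, 6.21% of DNAJB1 and 3.75% of HSP90AA1. Small nucleolar RNA genes on the same strand covered 3.61% of HSPA8. Rows of named pseudogenes of HSPA8, HSP90AA1, HSP90AB1, HSPB1 and DNAJB1 held at most 0.176% of the reads of their parent gene in any library.

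The bases before the start sites of the copies are shown so that the near-identical regions of these genes can be compared; no measurement here bears on promoter activity. Over the 250 bases before the RefSeq start sites, 235 aligned positions were identical, 14 were mismatched and 2 were gaps. Sequences are from RefSeq on GRCh38.p14, 5′ to 3′ on the gene's strand, without bases that GENCODE 29 gives as untranslated region. These were 79 of the 250 bases in HSPA1A and 3 in HSPA1B, so the printed stretches end at -80 and -4. Capitals mark the letters GAANNTTC, a pair of the inverted units of the heat shock element to which heat shock factors bind. HSPA1A is at chr6:31815293-31815463 and HSPA1B at chr6:31827488-31827734, both plus strand.
HSPA1A: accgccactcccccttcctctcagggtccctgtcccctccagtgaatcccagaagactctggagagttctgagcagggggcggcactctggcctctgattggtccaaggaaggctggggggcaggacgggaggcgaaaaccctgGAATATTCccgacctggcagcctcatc
HSPA1B: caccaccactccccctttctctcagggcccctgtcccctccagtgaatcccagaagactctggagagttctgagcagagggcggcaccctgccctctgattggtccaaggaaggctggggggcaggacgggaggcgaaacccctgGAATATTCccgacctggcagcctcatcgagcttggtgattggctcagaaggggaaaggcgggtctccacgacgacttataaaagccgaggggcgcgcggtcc
Both hold the same match, GAATATTC, from position -106 to -99 in HSPA1A and from -105 to -98 in HSPA1B, counted from the start site.

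The genes around the copies were also examined, a choice made after their values were seen. Within 50000 bases on either side, 8 other genes were tested, and 5 of these passed as higher and 1 as lower in the shSTN1-labelled libraries, a share near that of all tested genes (74.1% called). HSPA1L, an HSP70 gene mainly expressed in testis that lies beside HSPA1A on the opposite strand, had 19, 24 and 30 reads in control and 124, 121 and 98 in the shSTN1-labelled libraries (log2 fold change 2.26, edgeR adjusted p = 2.04e-10). NEU1, the lysosomal sialidase gene, had a log2 fold change of 0.75, SNHG32 of 0.69 and EHMT2, a histone methyltransferase gene, of -0.46. HSPA1B was the one gene tested in this stretch that was more than 2-fold lower.

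HSPA8 encodes the constitutive cytosolic HSP70, which also uncoats clathrin vesicles. It had 27609, 27445 and 23337 reads in control and 39734, 48147 and 35073 in the shSTN1-labelled libraries. The level was 1274 ± 51.0 against 2045 ± 141 CPM, 1.61-fold higher (log2 fold change 0.68, SE 0.0656, edgeR adjusted p = 2.75e-11). It was higher in every library labelled shSTN1 than in any control library.

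The balance between inducible and constitutive HSP70 was compared within each library, where the scaling of libraries cancels. Reads per kilobase of exon of HSPA1A plus HSPA1B were 1.03, 1.34 and 1.33 times those of HSPA8 in control and 0.169, 0.138 and 0.160 times in the shSTN1-labelled libraries. With the longest coding transcript as length these ratios were 0.525, 0.679 and 0.677 in control and 0.0858, 0.0699 and 0.0811 in the shSTN1-labelled libraries. The mean log2 ratio differed by -2.98, whichever length was used. The exact two-sided permutation test gave p = 0.1, the smallest value that 3 libraries against 3 allow, and p = 0.133 after adjustment over the 4 ratios tested. HSPA1A against HSPA1B, a ratio added after the values were seen, was 0.0340, 0.0315 and 0.0296 in control and 1.34, 1.25 and 1.03 in the shSTN1-labelled libraries (exact permutation p = 0.1, adjusted p = 0.133). Neither ratio overlapped between the groups. The size of the ratios to HSPA8 also depends on how reads that match both copies were treated, which is not given.

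HSPH1 encodes HSP110, the exchange factor of cytosolic HSP70, and had the smallest change of the members tested with TMM factors. Its levels were 178, 185 and 166 CPM in control and 135, 160 and 157 CPM in the shSTN1-labelled libraries, 85.3% of control on average (log2 fold change -0.23, SE 0.0896, edgeR adjusted p = 0.00366). Without shSTN1 replicate 1, the lowest of them, the log2 fold change was -0.15 and the gene no longer passed (edgeR adjusted p = 0.0702). With library totals alone it was -0.43 (edgeR adjusted p = 3.07e-06), larger in size than that of HSP90AB1 in the same fit. With TMM factors, 80.8% of all tested genes had a larger change.

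The cytosolic HSP90 genes split as well, with the inducible form lower and the constitutive form higher. HSP90AA1, the stress-responsive HSP90 alpha gene, had 27449, 25213 and 20892 reads in control and 10441, 12383 and 9607 in the shSTN1-labelled libraries. Its level fell from 1194 ± 110 to 541 ± 28.95 CPM, which was 45.3% of control (log2 fold change -1.14, SE 0.0875, edgeR adjusted p = 2.68e-16). The 3 libraries labelled shSTN1 all lay below the lowest control, which held 1128 CPM.

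HSP90AB1, the constitutive HSP90 beta gene, was the most abundant member in both groups. It had 42791, 43690 and 38129 reads in control and 55417, 57280 and 45729 in the shSTN1-labelled libraries. The level was 2027 ± 62.4 against 2642 ± 57.8 CPM, 1.30-fold higher (log2 fold change 0.38, SE 0.0316, edgeR adjusted p = 1.30e-06). Its size depended on scaling: with library totals alone the log2 fold change was 0.18 (edgeR adjusted p = 0.00546), in a fit where the median of all genes moved from -0.03 to -0.22. In that fit 38% of all calls were higher, against 48% with TMM factors.

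Per kilobase of exon, HSP90AA1 stood at 0.364, 0.328 and 0.311 times HSP90AB1 in control and at 0.107, 0.123 and 0.119 times in the shSTN1-labelled libraries. The mean log2 ratio differed by -1.52 (exact permutation p = 0.1, adjusted p = 0.133). The groups did not overlap, and this ratio does not depend on how libraries were scaled.

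**Figure D3:**
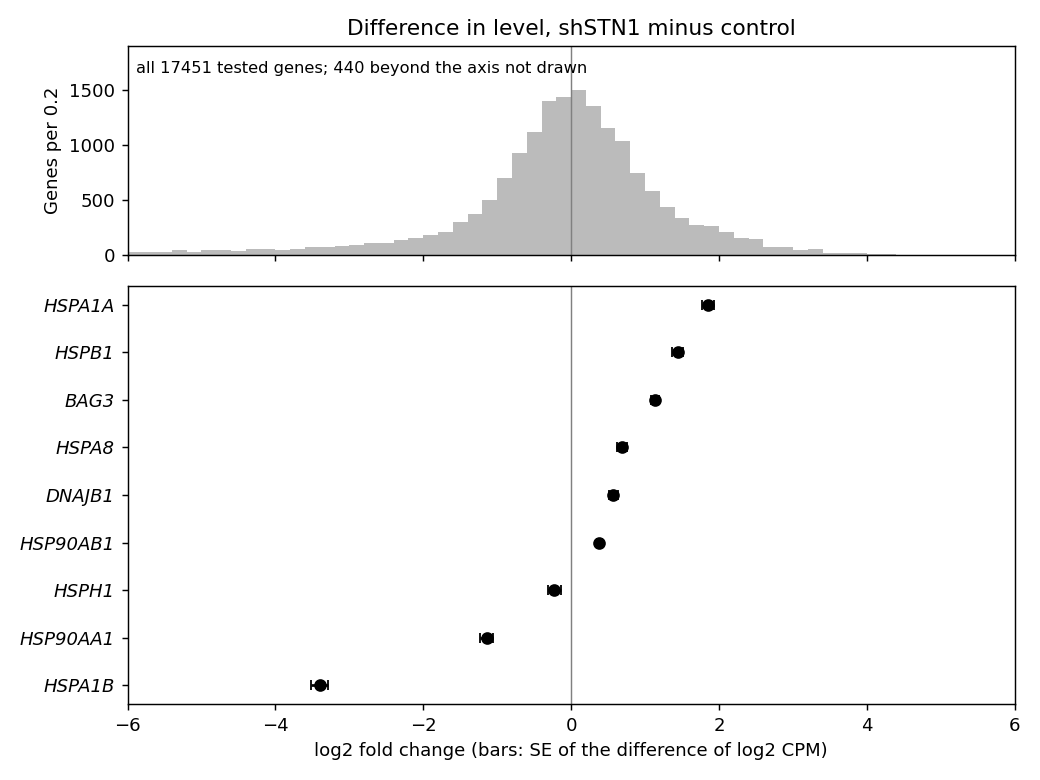
Top: log2 fold changes (shSTN1 minus control) of the 17451 tested genes, in steps of 0.2, with those beyond the axis not drawn. Bottom: the 9 tested chaperones on the same axis, with bars for the SE of the difference of mean log2 CPM; they run from -3.40 for HSPA1B to 1.85 for HSPA1A.

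DNAJB1 encodes the main stress-inducible HSP40, the partner of HSP70. It stood at 116, 127 and 119 CPM in control and at 190, 172 and 174 CPM in the shSTN1-labelled libraries, 1.48-fold higher (log2 fold change 0.57, SE 0.0588, edgeR adjusted p = 3.10e-09). BAG3 links HSP70 to small heat shock proteins and to the selective autophagy of damaged proteins. It had 3203, 3181 and 2575 reads in control and 6582, 6719 and 5760 in the shSTN1-labelled libraries. The level was 145 ± 7.76 against 319 ± 9.81 CPM, 2.19-fold higher (log2 fold change 1.13, SE 0.0509, edgeR adjusted p = 6.79e-17). Neither gene had a library that overlapped the other group.

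HSPB1, which encodes HSP27, a small heat shock protein that also binds actin, had 5584, 5128 and 4810 reads in control and 14606, 14472 and 12051 in the shSTN1-labelled libraries. Its level was 253 ± 20.8 against 687 ± 25.3 CPM, 2.7-fold higher (log2 fold change 1.44, SE 0.0762, edgeR adjusted p = 3.10e-19). CRYAB, the alpha-B crystallin gene of lens and muscle, had 2, 2 and 3 reads in control and 6, 4 and 2 in the shSTN1-labelled libraries. It was left out of the test by the filter on low counts, and no difference was detectable at this depth. HSPB1 reads per kilobase were 5184, 4761 and 2977 times those of CRYAB in control and 4520, 6718 and 11190 times in the shSTN1-labelled libraries. These ratios overlapped (exact permutation p = 0.3, adjusted p = 0.3), and rest on 6 or fewer CRYAB reads a library. Their mean log2 difference was 0.74, but 0.40 without shSTN1 replicate 3 and 0.49 without control replicate 3.

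Heat shock element letters were also searched around the start sites of the other members. No measurement here bears on promoter activity or on the binding of heat shock factors. RefSeq windows of 300 bases, 250 before and 50 after the start, were found for 9 of the 10 members, 14 windows in all. The pairs GAANNTTC and TTCNNGAA, each its own reverse complement, occurred in 8 of the 14 windows and in 7 members, against 13.5% of 35116 windows of all genes. Of all windows, 6.77% held GAANNTTC and 7.74% held TTCNNGAA. The longer run of GAANNTTC followed directly by NNGAA, searched on both strands and overlapping both pairs, was in windows of HSPA8, HSP90AA1 and HSP90AB1, against 0.49% of all windows. Stretches around the matches are shown with up to 30 bases on either side, again without untranslated bases, for HSP90AB1 (chr6:44247748-44247865, plus), HSPB1 (chr7:76302461-76302528, plus), HSPA8 (chr11:123062353-123062386, minus) and DNAJB1 (chr19:14518421-14518504, minus). Capitals mark the matched letters.
HSP90AB1: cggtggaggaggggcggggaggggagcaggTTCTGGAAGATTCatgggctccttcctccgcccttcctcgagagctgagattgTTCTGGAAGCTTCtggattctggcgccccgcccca
HSPB1: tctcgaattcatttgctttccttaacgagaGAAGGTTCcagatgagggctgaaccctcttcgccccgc
HSPA8: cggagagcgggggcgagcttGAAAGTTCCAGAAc
DNAJB1: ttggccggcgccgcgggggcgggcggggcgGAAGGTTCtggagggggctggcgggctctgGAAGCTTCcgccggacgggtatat
HSPA8 held a further match, TTCTGGAAGGTTC, at -55 to -43 from its start site, and HSP90AA1 held TTCCGGAAGGTTC at -88 to -76 from the start site at 102087044 on chromosome 14. Both matches in HSP90AB1 lie before the most downstream of its 3 listed start sites. These letters were not in the windows of BAG3 and HSPH1. Members with the longer run included 1 that was lower (HSP90AA1) and a pair that were higher (HSPA8, HSP90AB1) in the shSTN1-labelled libraries. Whether these letters bear on the levels was not tested.

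Within groups the members varied little. The SD of log2 CPM over 3 libraries lay between 0.0314 (HSP90AB1, shSTN1) and 0.164 (HSPA1B, control). In control replicate 1, HSPA1B was the lowest of its group (690 CPM against 827 and 851 CPM) and HSP90AA1 the highest (1321 CPM against 1128 and 1132 CPM). No library had the chaperones raised or lowered together: between 3 and 6 of the 9 tested members were above their group mean in each library, and their mean deviation lay between -0.00709 and 0.0110 on the log2 scale.

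Ordered by CPM per kilobase of exon, the control libraries had HSP90AB1 first (680 ± 20.9), then HSPA1B (313 ± 34.5), HSPA8 (263 ± 10.5), HSP90AA1 (228 ± 21.0) and HSPB1 (155 ± 12.7). BAG3 (52.9 ± 2.83), DNAJB1 (32.8 ± 1.56), HSPH1 (21.0 ± 1.12), HSPA1A (9.88 ± 0.529) and CRYAB (0.0383 ± 0.0133) followed. Among neighbours in this order, HSPA1B and HSPA8 overlapped between libraries and the others did not. In the shSTN1-labelled libraries the order was HSP90AB1 (887 ± 19.4), HSPA8 (422 ± 29.1), HSPB1 (420 ± 15.5), BAG3 (116 ± 3.57), HSP90AA1 (103 ± 5.52), DNAJB1 (48.7 ± 2.59), HSPA1A (35.6 ± 2.82), HSPA1B (29.6 ± 2.30), HSPH1 (17.9 ± 1.63) and CRYAB (0.0648 ± 0.0298). There HSPA8 and HSPB1 overlapped. This order depends on the length used, which here was the union of all exons of a gene. With the longest coding transcript as the length, a choice made after the data were seen, the control order began with HSP90AB1 (758 ± 23.3), HSPA8 (517 ± 20.8), HSP90AA1 (340 ± 31.4) and HSPA1B (313 ± 34.5), the last pair overlapping. HSPB1 (278 ± 22.8) came next and overlapped HSPA1B. In the shSTN1-labelled libraries HSPA8 (830 ± 57.4) and HSPB1 (755 ± 27.8) then did not overlap, and HSPA1B (29.6 ± 2.31) overlapped HSPH1 (29.01 ± 2.63). HSPA1B took place 8 of 10 in the shSTN1-labelled libraries with either length, after place 2 or 4 in control. Neither length leaves out the stretches that HSPA1A and HSPA1B share, and reads from these may be missing from both levels. The places of these copies among the members therefore hold for reads as counted.

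The members together took a similar share of the reads of both groups, 0.633% to 0.653% in control and 0.618% to 0.641% in the shSTN1-labelled libraries, and these ranges overlap. On the TMM scale their sum was 6003 ± 147 against 6726 ± 116 CPM, with no overlap, so the direction of the total depends on the scaling. The make-up of these reads differed more than their sum. HSPA1B took 11.2% to 14.1% of them in control and 1.02% to 1.22% in the shSTN1-labelled libraries. HSP90AA1 took 18.8% to 21.5% and 7.63% to 8.27%. HSPA8 went from 21.0% to 21.6% up to 29.03% to 32.2%, HSP90AB1 from 33.4% to 34.3% up to 38.3% to 40.5%, and HSPB1 from 3.92% to 4.38% up to 9.67% to 10.7%.

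**Figure D4:**
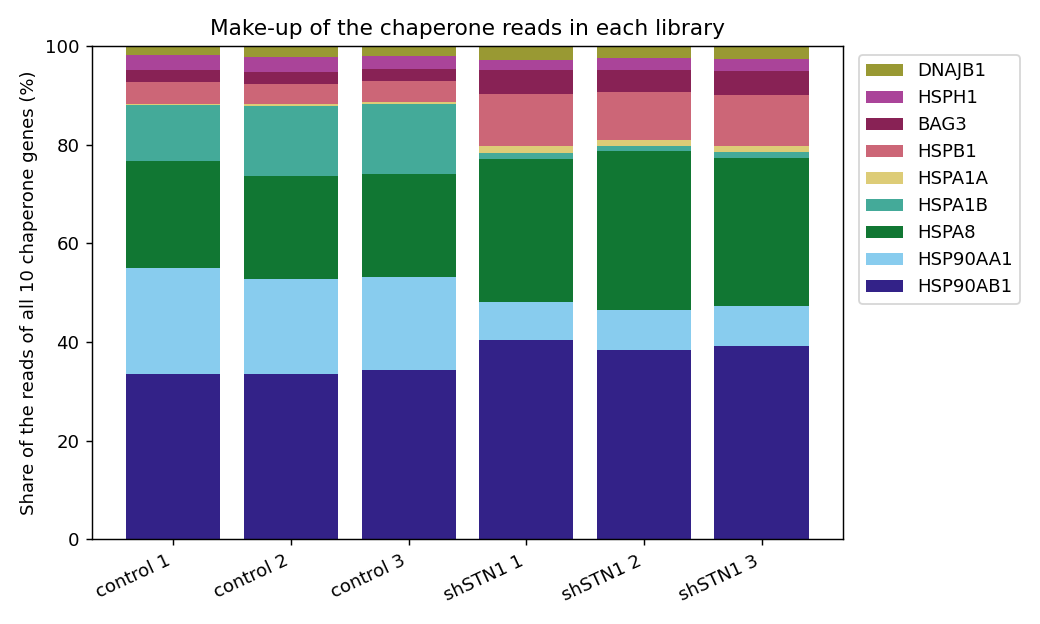
Share of the reads of all 10 chaperone genes held by each gene, per library, in percent of their summed reads; CRYAB, at most 0.00438%, is not drawn. HSPA1B and HSP90AA1 take smaller parts, and HSPA8, HSP90AB1 and HSPB1 larger parts, in every library labelled shSTN1 than in any control library.

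The transcription factors of the heat shock response were present in both groups. HSF1, the main activator, stood at 139 ± 2.64 against 115 ± 8.56 CPM in control (log2 fold change 0.28, edgeR adjusted p = 4.67e-04), and did not pass with library totals alone (0.08, edgeR adjusted p = 0.282). HSF2, a related factor active in development, was lower, at 29.3 ± 2.98 against 42.3 ± 5.58 CPM (-0.53, edgeR adjusted p = 1.85e-05). HSF4, known from the lens, was higher at 11.4 ± 0.251 against 5.10 ± 0.796 CPM (1.15), and HSBP1, whose product binds heat shock factors, was lower (-0.41).

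The pathway around the members was described by 8 lists of 93 other chaperone and heat shock response genes. The lists do not hold every gene of each family, and counts and medians are those of the listed genes. Of the 86 tested, 34 were higher, 35 lower and 17 did not pass the threshold, with a median log2 fold change of 0.00, beside 35.6% higher and 38.5% lower among all tested genes. Co-chaperones of HSP90 and the mitochondrial HSP90 gene TRAP1 lay mostly on the lower side, with 10 of 15 lower, 2 higher and a median of -0.38. Among them were the immunophilin FKBP4 (262 ± 10.3 against 497 ± 7.24 CPM, -0.92), TOMM34 (-0.97) and TRAP1 (-0.85), with edgeR adjusted p of 4.96e-15, 2.44e-13 and 5.33e-14. HSP90AA1 was lower in the same libraries and HSP90AB1 higher.

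Other listed HSP70 and HSP110 genes divided into 5 lower and 3 higher of 10 tested (median -0.23). HSPA4L, an HSP110 gene, had a log2 fold change of -1.14, HSPA12A of -1.16 and HSPA14 of -1.17. The 3 higher ones were HSPA1L (2.26), HSPA2 (0.99) and HSPA6 (0.91). The listed DNAJ genes divided into 12 higher and 7 lower of 23 (median 0.19). Both lists stand beside 35.6% higher and 38.5% lower among all tested genes. Their range was wide, from DNAJC12, with 331, 256 and 216 reads in control and 2, 7 and 1 in the shSTN1-labelled libraries, to DNAJC15, a mitochondrial DNAJ gene, at 43.6 ± 2.59 against 6.97 ± 0.562 CPM (2.64). DNAJC6, the auxilin gene that works with HSPA8 in clathrin uncoating, was lower (-2.73).

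Among 8 HSP70 co-chaperones and exchange factors, 4 were higher and 2 lower (median 0.14). BAG2, an exchange factor that inhibits the ubiquitin ligase STUB1, was higher (0.97), as BAG3 was, whereas BAG4 (-1.29) and the HSP70-interacting protein gene ST13 (-0.80) were lower. Cytosolic and mitochondrial chaperonins and prefoldin split into 5 higher and 7 lower of 16 (median 0.01), where 74.1% of all tested genes were called. Among them were CCT3 at -0.84, CCT8 at -0.59 and the mitochondrial co-chaperonin gene HSPE1 at 0.76.

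Of the other genes listed under small heat shock proteins, 3 of 8 had enough reads to be tested. HSPB8 and HSPB9 did not pass. Only HSPB11, which was listed by its symbol, passed (0.26, edgeR adjusted p = 0.0215). Its call was lost without control replicate 2 (edgeR adjusted p = 0.114), control replicate 3 (0.0616) or shSTN1 replicate 3 (0.0587). The call was also lost with no low-count filter (0.0738) and with library totals alone (0.592). Of 7 further heat shock response genes 5 were higher and 2 lower (median 0.59), beside 74.1% of all tested genes called. The lower ones were UBB (-0.64) and IER5 (-0.56). SQSTM1, the autophagy receptor p62, rose from 194 ± 9.48 to 797 ± 3.94 CPM (2.04), the secreted chaperone gene CLU had 1.94 and HMOX1, heme oxygenase 1, had 0.83. The part that the marker differences given above play in these lists was not tested.

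**Figure D5:**
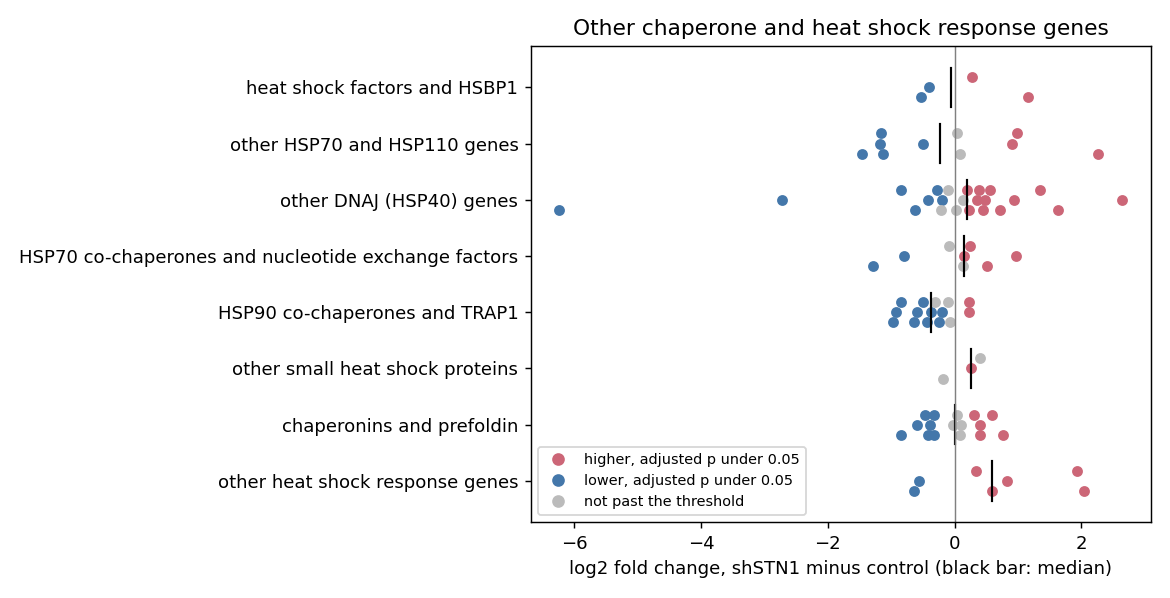
Log2 fold changes (shSTN1 minus control) of the 86 tested genes of the 8 other lists; red and blue points passed the adjusted p of 0.05, grey points did not, and black bars are list medians. The medians run from -0.38 for the HSP90 co-chaperones to 0.59 for the other heat shock response genes.

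The genes whose profile over the 6 libraries was most like that of HSPA1A were TMSB10, PRAG1, EHBP1L1 and RASL11A. Likeness was the root mean square difference between log2 CPM profiles centred on their means, among protein-coding genes at 20 CPM or more, and was 0.0567, 0.0585, 0.0590 and 0.0621 for these genes. With 6 libraries in 2 groups, this measure reflects mainly the difference between the groups.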

How the data were processed

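The file the authors deposited gives raw counts (whole reads for each gene, not normalized). The submitters' processing notes name STAR 2.7.2b, featureCounts 2.0.1, FastQC and cutadapt, and the build GRCh38. Which annotation release and strand setting were used, and how reads with several matches were handled, is not given in the sources used here, so genes with near-identical copies, overlapping or antisense partners can share or lose reads. Of 60668 rows, 45 second copies of pseudoautosomal genes were left out. Coordinates and exon lengths came from GENCODE 29 (GRCh38), in which 58516 of the 60623 rows kept were found by identifier.

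The fit used edgeR 4.0.16 in R 4.3.3 on all 6 libraries, with filterByExpr, TMM scaling and no covariates. shSTN1 was compared with control by the quasi-likelihood test with robust settings. Benjamini-Hochberg adjustment ran over 17451 genes, with a threshold of 0.05. CPM values use TMM factors and are given as mean ± SD (n = 3), and each SE belongs to the log2 CPM difference of both group means (prior count 2). Alternatives were RLE and upper-quartile factors, 2 low-count filters, DESeq2 1.42.0, limma-voom (limma 3.58.1), the replicate number as a block and leaving out each library. Library totals alone were added after the data were seen. Counts were simulated for 17090 genes, with 50 genes changed at each fold size. In these, 68% of the 1.5-fold changes, 84% of the 2-fold changes and 100% of the 4-fold changes were found. Of the simulated calls, 5.38% were false. Far fewer genes differed there than in the real comparison, where 74.1% were called, so these rates need not carry over. Counts of replicates of a group differed beyond sampling noise, with chi-square values of 3 to 8.81 times their degrees of freedom.

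The members and lists were chosen with earlier results of these data known. By rule, all 10 members were named, HSF1 and HSF2, STN1 and CDKN2A, and from each list the 3 or fewer genes that passed with the lowest adjusted p and reached 5 CPM, besides the 4 genes most like HSPA1A. Any further gene was picked with its values in view. Where a symbol stood on several rows (HSPA14), the identifier that carries it in the name table was used.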

Additional observations from a re-analysis of the deposited data

How the results depend on the processing

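Under 14 alternatives, the 9 tested chaperones kept their direction, and 8 or 9 of them passed the threshold. Requiring at least a 2-fold difference as well left 5. The call lost was HSPH1, without shSTN1 replicate 1. The log2 fold change of HSPA1A lay between 1.65 and 1.90 over the alternatives, that of HSPA1B between -3.60 and -3.35, that of HSP90AA1 between -1.34 and -1.08, and that of the summed HSPA1A and HSPA1B reads between -2.52 and -2.28. Counts of all genes past the threshold ran from 12074 (at least 1 CPM in 3 libraries) to 13901 (no low-count filter), with 12450 by DESeq2 and 12917 by limma-voom. Of the 93 other chaperone genes, 62 (library totals alone) to 69 passed. Leaving out 1 library at a time moved the HSP70 ratio between -3.11 and -2.90, the HSP90 ratio between -1.57 and -1.46, and the HSPB1 against CRYAB ratio between 0.40 and 1.05. With library totals alone, the log2 fold change of HSPH1 was -0.43, that of HSP90AB1 0.18, that of DNAJB1 0.37 and that of HSPA8 0.49.

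The replicate block gave 12742 genes, 9 chaperones and 67 of the other genes, and a value of -2.31 for the summed HSP70 copies; paired ratios were -2.98, -1.52 and 0.74. Deviations from the group means were uncorrelated between same-numbered libraries (-0.0123, 0.0171 and -0.0337), and the numbers were not taken as pairs. CRYAB could be tested only with no low-count filter (log2 fold change 0.73, adjusted p = 0.586). Depth limits statements on CRYAB and the other small heat shock proteins.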
